A study of Chlamydomonas reinhardtii with 20 samples.

Results

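The 102 genes described here are the Chlamydomonas reinhardtii genes whose transcript level dropped within 0.5 h of white light in both complemented lines of the hmox1 mutant and had returned to near the dark level, or above it, by 4 h. They were taken from 17737 gene IDs measured by RNA sequencing. For each line, the early value was log2 of the ratio of the 0.5 h mean plus 1 to the dark mean plus 1, and the late value was the same ratio for 4 h. A gene was kept when the early value was -1.5 or lower and the late value was above -0.5 in ho1C1 and in ho1C2. The genes were thus chosen by their drop and return in those lines, and their values there are a description with no test. Their levels in the wild type and in the mutant were not used for the choice, and the tests below concern only those.

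The study held 20 libraries in 10 groups of 2, which the labels call biological replicates. Wild-type strain 4A+ and the mutant hmox1 were each sampled after 4 h of white light, with and without 0.1 mM biliverdin IXα (BV). The lines ho1C1 and ho1C2, labelled as hmox1 complemented strains, were sampled without BV in the dark, after 0.5 h and after 4 h of light. Every culture had grown in the dark on acetate medium that carried methanol, with or without BV. The light times are those in each sample's label, while the treatment text describes a shorter exposure of 30 min alone. The sources used here do not give the construct carried by the complemented lines. No dark or 0.5 h library of 4A+ or hmox1 and no BV-treated library of a complemented line was used here, so the drop itself was read in the complemented lines alone.

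As background, heme oxygenase opens the heme ring to give biliverdin, the first of the linear tetrapyrroles called bilins. In plants and many algae bilins are the chromophores of light-sensing phytochromes, but C. reinhardtii has no phytochrome; there the HMOX1 enzyme and its bilin products are known for a role in adjusting cells to light after growth in darkness. Cells fed BV receive the product of the missing step from outside. When dark-grown algae meet light, the transcripts for light harvesting, pigment synthesis, carbon uptake and protection from light damage are remodelled within the first hours. The files pair no gene name or function with these IDs, so the genes are given by ID, 87 of the Cre type and 15 of the shorter g type, and no function is stated for any of them. For the same reason HMOX1 itself was not looked up and the strain labels were not checked against it.

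Values are RPKM, reads scaled to gene length and library size, a unit inferred from the values. The total read count of each library is unknown. The spacing of low values put the relative depth of the libraries between 0.616 and 2.03, a ratio of 3.3. Replicates correlated at 0.993 or more across genes on the log2 scale. The replicates differed most in hmox1 without BV (median absolute difference 0.155), where the second library also had the lowest relative depth. In these bulk cultures a lower RPKM cannot tell less RNA of a gene per cell from fewer cells that carry it, and all values are shares of the RNA of a library.

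Of 579 genes that passed the early threshold in both lines, 102 had returned by 4 h and 477 stayed lower in at least 1 line. Among the 102 the median level in ho1C1 was 6.38 RPKM before the light, 1.02 after 0.5 h and 6.82 after 4 h. In ho1C2 the 3 medians were 7.24, 1.14 and 6.63. The typical gene thus lost most of its RPKM within 0.5 h and regained it by 4 h. The median early value was -1.90 in ho1C1 and -1.87 in ho1C2, against -0.38 and -0.31 over all 13871 genes tested. The 102 late values had medians of -0.10 and -0.04, close to the medians of all genes tested, -0.13 and -0.16. Among the 102, the early value was -2 or lower in both lines for 26 genes and -3 or lower for 4. The late value was 0 or higher in both lines for 43 genes, 0.5 or higher for 14 and 1 or higher for 4, while 50 genes stayed slightly below the dark level in both.

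**Figure D1:**
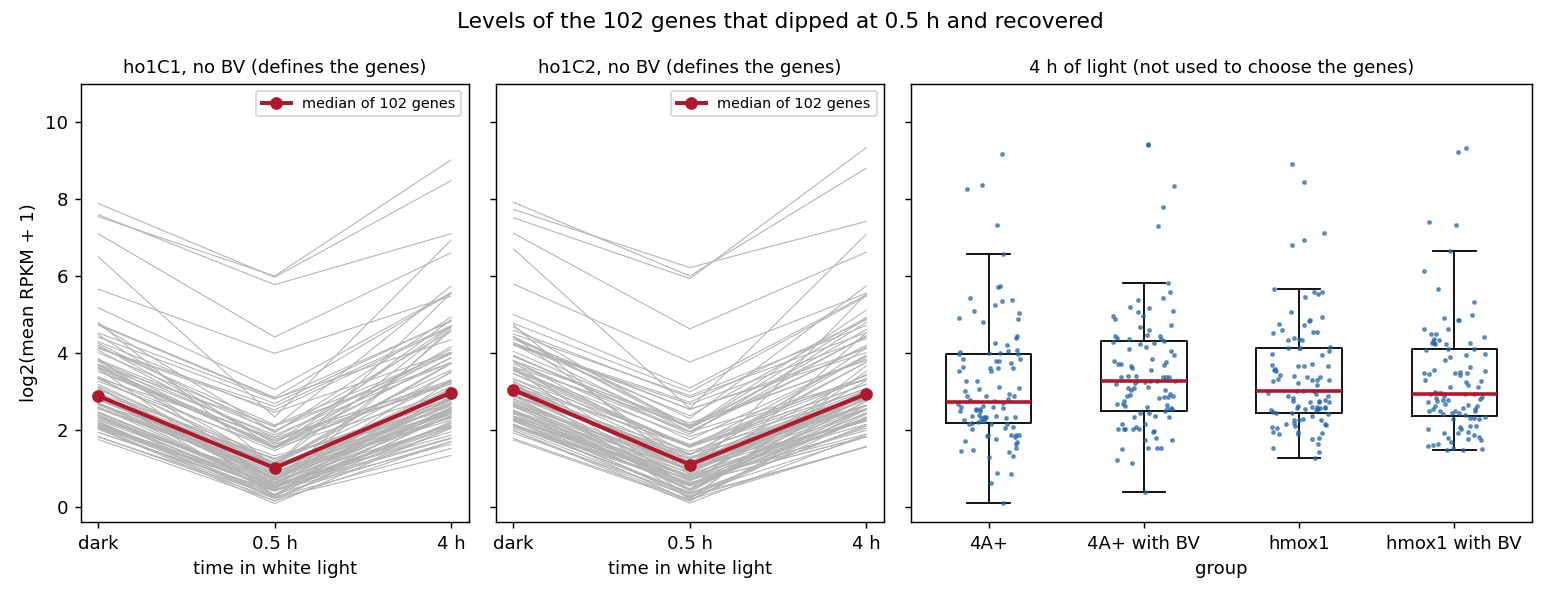
Left, the levels of the 102 genes in ho1C1 and ho1C2 before light and after 0.5 h and 4 h of it, as log2 of the group mean RPKM plus 1, with 1 grey line per gene and the median in red. Right, the same for 4A+ and hmox1 with and without BV at 4 h, with 1 point per gene, boxes over the quartiles, the median as a red line and whiskers to the last gene within 1.5 box lengths. The 0.5 h medians of 1.02 and 1.14 RPKM lie far below the dark and 4 h medians, and the medians of the 4 groups on the right lie between 5.59 and 8.64 RPKM.

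The deepest drop was that of g2460. In ho1C1 it stood at 86.1 and 92.7 RPKM in the dark, at 2.77 and 5.33 at 0.5 h, and at 120.3 and 121.5 at 4 h. In ho1C2 the pairs were 102.2 and 104.4, then 3.80 and 5.96, then 130.8 and 138.7. All 4 libraries at 0.5 h were below all dark libraries by a wide margin, and all 4 h libraries were above them. Cre09.g409650 followed the same course, from 23.9 to 28.2 RPKM over the 4 dark libraries to 0.64 to 1.44 at 0.5 h and 43.4 to 47.4 at 4 h. Cre16.g695850 went from 11.03 to 11.4 in the dark to 0.14 to 0.26 at 0.5 h and came back to 8.61 to 10.6, just under its dark level. Cre03.g155250 went from 12.2 to 13.99, to 0.30 to 0.83, and then to 20.03 to 25.6. Of these 4, the late value was above 0 in both lines for g2460, Cre09.g409650 and Cre03.g155250, and below 0 in both for Cre16.g695850.

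The 4 genes with the highest dark level among the 102 dipped by differing amounts. Early values in ho1C1 and ho1C2 were -2.68 and -2.48 for Cre14.g611300 and -1.54 and -1.58 for Cre01.g015350. Cre13.g573400 stood at 229 to 246 RPKM over the dark libraries, at 61.1 to 64.1 at 0.5 h and at 352 to 446 at 4 h. Cre07.g321400 stood at 191 to 214 in the dark, at 50.8 to 74.4 at 0.5 h and at 132 to 179 at 4 h, so its 4 h libraries were all below its dark libraries. Cre01.g015350 went from 179 to 187, to 58.7 to 63.5, and then to 510 to 657, far above where it began. Cre14.g611300 went from 130.2 to 144.2, to 18.4 to 24.2, and returned to 93.3 to 100.7. Among these abundant genes, then, the 0.5 h libraries were below all others in both lines, and the 4 h libraries ended above the dark in Cre13.g573400 and Cre01.g015350 and below it in Cre07.g321400 and Cre14.g611300.

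The return overshot most in Cre01.g015350, Cre04.g223050 and Cre11.g479900, the 3 genes with the highest late value in the line where it was lower. Cre04.g223050 in ho1C1 was at 6.2 and 6.02 RPKM in the dark, 0.76 and 1.51 at 0.5 h and 24.4 and 25.01 at 4 h. In ho1C2 the same gene was at 20.4 and 20.5, then 3.72 and 4.12, then 52.1 and 52.9. The lines thus began from different levels and moved in the same directions, with late values of 1.85 in ho1C1 and 1.32 in ho1C2. Cre11.g479900 reached 51.8 and 52.9 at 4 h in ho1C1 and to 32.2 and 34.9 in ho1C2, from 14.7 to 15.7 in the dark in both. The lines differed by 0.5 or more in the late value for 3 genes, which were Cre04.g223050, Cre11.g479900 and Cre16.g663450. Cre16.g663450 had the widest gap, at 24.6 and 23.3 in ho1C1 at 4 h against 5.23 and 6.17 in ho1C2, although both lines began at 4.02 to 4.69 and stood at 0.31 to 0.39 at 0.5 h. The other 99 late values differed by less, and the median difference, ho1C2 minus ho1C1, was 0.01.

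At the thresholds, Cre01.g013050 was just inside the early one, with -1.502 and -1.512, and Cre12.g529050 just outside it, with -1.706 in ho1C1 and -1.493 in ho1C2. Cre01.g012750 was just inside the late one, with -0.498 and -0.356, and Cre01.g036800 just outside, with -0.50 and -0.371. These genes were picked for lying next to a threshold, so their closeness in that value is fixed by the choice. The 2 at the early threshold differed in dark mean in ho1C1, 3.83 RPKM for Cre01.g013050 and 12.59 for Cre12.g529050. The size of the set depended on the thresholds, with 26 genes at an early threshold of -2 and 43 at a late threshold of 0. With the libraries rescaled by the median ratio of all genes, 49 of the 102 still met both thresholds in both lines.

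**Figure D2:**
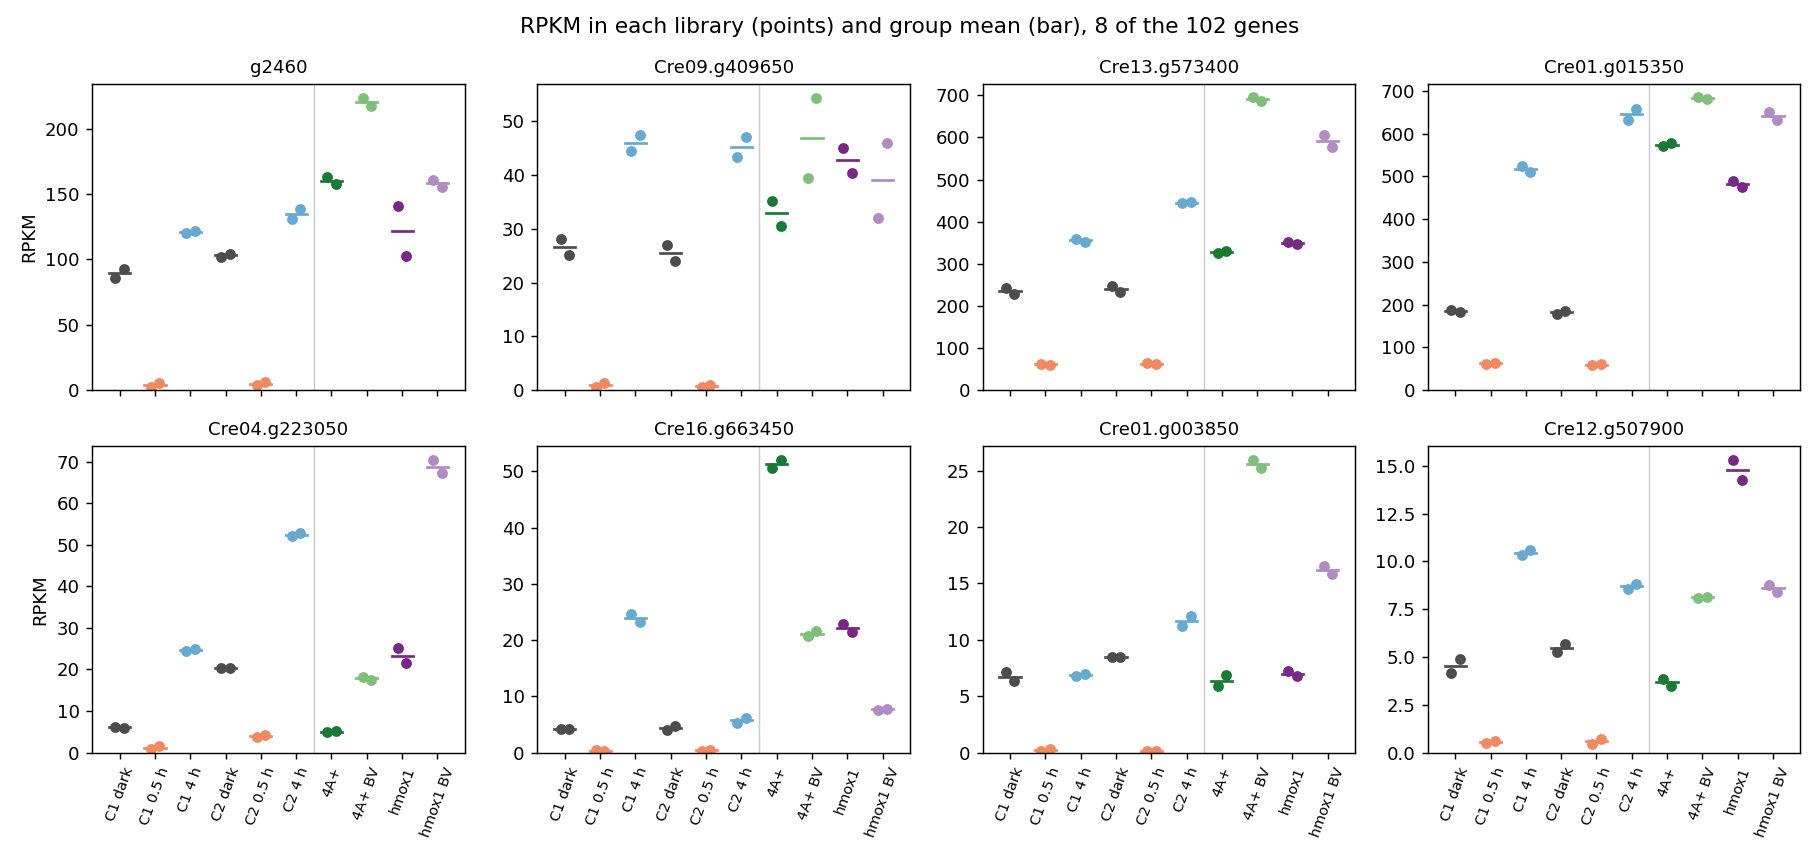
RPKM in each of the 20 libraries for 8 of the 102 genes, with 1 point per library, a bar for the group mean and the groups along the horizontal axis (C1 and C2 are ho1C1 and ho1C2). The lowest points of each gene are the 4 libraries at 0.5 h; in Cre16.g663450 the ho1C1 libraries at 4 h stand at 23.3 and 24.6 and the ho1C2 libraries at 5.23 and 6.17.

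In 4A+ and hmox1, whose libraries did not choose the genes, the levels at 4 h were mostly above the 0.5 h levels of the complemented lines. The genes were chosen for low 0.5 h values, which largely fixes that order, so nothing is read from it. In hmox1, with and without BV, both libraries were above every 0.5 h library of the complemented lines for all 102 genes, against 50% of all genes tested without BV and 47.1% with it. In 4A+ with BV this held for 101 genes, against 41.1% of all genes tested, the exception being Cre01.g042700. In 4A+ without BV it held for 98, against 36.6%, the others being g4970, Cre01.g042700, Cre10.g437000 and Cre12.g505250. Set against the mean dark level of the complemented lines, the median log2 difference was -0.27 in 4A+, 0.17 in 4A+ with BV, 0.01 in hmox1 and -0.07 in hmox1 with BV. The levels in hmox1 lay within 0.5 of that dark level for 73 genes (71.6%, against 59% of all genes tested) without BV and for 72 (70.6% against 60.2%) with it. In 4A+ this was 55 genes (53.9% against 48.2%) without BV and 53 (52% against 54.8%) with it. With BV, 32 genes (31.4%) in 4A+ were 0.5 or more above the dark level, against 10.3% of all genes tested. The rule that chose the genes also set the 4 h level of the complemented lines against this dark level. The shares near or above it may therefore follow in part from the choice, and nothing is read from them. These are levels across strains and carry no test.

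Without BV the genes mostly stood higher in hmox1 than in 4A+ at 4 h, as did the transcriptome as a whole. The median difference was 0.22 on the log2(RPKM + 1) scale, against 0.24 over all genes tested. By limma's moderated test with Benjamini-Hochberg adjustment, 46 of the 102 were higher in hmox1 (45.1%), where the share over all 13871 genes tested was 53.5%. The lower calls numbered 14 (13.7%), against 11.8%. The 102 thus differed little from the background in these shares. When the libraries were rescaled by the median ratio of all genes, the median of all genes fell from 0.24 to 0 and that of the 102 from 0.22 to -0.09, and the calls became 21 higher and 33 lower, against 30.5% and 30.2% of all genes. The balance of higher and lower calls between the strains therefore depends on the scaling.

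Here and below, a change counted as 2-fold is a difference of 1 or more on the log2(RPKM + 1) scale. This leaves out some genes of low level whose RPKM changed 2-fold. Changes of that size were called for 11 of these genes, 7 higher in hmox1, against 7.05% of all genes tested, and 4 lower, against 0.8%. Cre04.g223050 was at 4.89 and 5.23 RPKM in 4A+ and at 25.2 and 21.5 in hmox1, a log2 difference of 2.00 (SE 0.113, limma adjusted p = 7.4e-11). Cre01.g042700 was close to 0 in 4A+, at 0.09 and 0.07, and at 3.68 and 2.91 in hmox1. Its difference was 1.99 (SE 0.0990, limma adjusted p = 1.1e-11), on a scale that understates the change of so low a gene. Its 4A+ libraries lay below its own 0.5 h libraries in the complemented lines, which were at 0.28 to 0.36. Cre12.g507900 was at 3.87 and 3.47 in 4A+ and at 15.3 and 14.3 in hmox1, higher by 1.76 (SE 0.0886, limma adjusted p = 1.3e-11). In each of the 3 the pairs were far apart compared with the gap within a pair, but the rule for naming them required libraries without overlap.

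The 4 genes that were at least 2-fold lower in hmox1 were Cre01.g016400, Cre10.g439450, Cre16.g663450 and Cre07.g321400. Cre01.g016400 was at 15.3 and 16.3 RPKM in 4A+ and at 6.13 and 5.48 in hmox1, a difference of -1.30 (SE 0.0907, limma adjusted p = 9.4e-10). Cre10.g439450 was at 13.3 and 9.30 in 4A+ and at 4.57 and 4.18 in hmox1, with a difference of -1.18 (SE 0.120, limma adjusted p = 1.4e-07). Cre16.g663450, which separated the complemented lines, was at 50.6 and 51.9 in 4A+ and at 22.9 and 21.5 in hmox1, with a difference of -1.175 (SE 0.0799, limma adjusted p = 6.9e-10). The abundant gene Cre07.g321400 was at 317 and 292 in 4A+ and at 132 and 144 in hmox1, with a difference of -1.14 (SE 0.0619, limma adjusted p = 3.7e-11). For Cre01.g016400 and Cre10.g439450 the hmox1 levels were near the dark levels of the complemented lines, 3.87 to 5.99 and 3.49 to 4.90, and the 4A+ levels were above them. The 2 libraries of 4A+ spread more widely for Cre10.g439450 than for the other 3 genes.

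These genes were called higher with BV in 4A+ more often than genes in general. The median level of the 102 was 5.59 RPKM without BV and 8.64 with it, and the median over all genes tested was 4.21 and 4.44. By limma, 61 of the 102 rose with BV (59.8%, against 32.1% of all genes tested) and 12 fell (11.8%, against 27.4%). The median difference was 0.34, against 0.03 for all genes. With rescaled libraries the counts were 56 and 15, against 30.3% and 31.2% of all genes, and the medians 0.30 and 0. The rises were mostly modest on the log2(RPKM + 1) scale, where 6 reached 2-fold (5.22% of all genes tested) and 2 falls did (3.43%). Other genes passed 2-fold in mean RPKM alone. Examples are Cre12.g507900, which rose from 3.67 to 8.13, and g9967, which fell from 3.415 to 1.33.

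Cre01.g003850 had the highest rise with BV among the 102 in 4A+, from 5.89 and 6.84 RPKM to 25.9 and 25.3, a difference of 1.86 (SE 0.0835, limma adjusted p = 1.5e-12). In the complemented lines it had gone from 6.34 to 8.49 in the dark to 0.13 to 0.31 at 0.5 h. Cre04.g223050 rose from 4.89 and 5.23 to 18.3 and 17.5, by 1.64 (SE 0.113, limma adjusted p = 6.3e-10). Cre07.g326700 rose from 3.01 and 1.72 to 5.78 and 7.38, by 1.19 (SE 0.190, limma adjusted p = 6.0e-05), with a wider spread within its pairs than the other two. Cre13.g573400, the gene with the highest dark level of the 102, rose from 325 and 330 to 696 and 687, by 1.08 (SE 0.0442, limma adjusted p = 4.1e-13). The 2 falls of 2-fold or more were those of Cre16.g663450, from 50.6 and 51.9 to 20.6 and 21.6, and of Cre10.g423400, from 20.4 and 21.3 to 8.98 and 9.72. Their differences were -1.24 (SE 0.0799) and -1.08 (SE 0.0796), with limma adjusted p of 2.0e-10 and 1.4e-09. For all 6 of these genes the libraries with and without BV did not overlap. The rule for naming the leading rises and falls required this, so nothing is read from it.

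Of the 4 genes with the deepest drop, Cre16.g695850 rose with BV in 4A+, from 14.6 and 15.8 RPKM to 18.1 and 21.2, by 0.35 (SE 0.0777, limma adjusted p = 0.00086). For g2460 the values went from 163 and 157 to 223 and 217, a difference of 0.46 (SE 0.222) with a limma adjusted p of 0.10. For Cre09.g409650 they went from 35.2 and 30.5 to 39.5 and 54.3, with a difference of 0.49 (SE 0.196, limma adjusted p = 0.048), a call that was lost with either smaller pseudocount and without either 4A+ library that lacked BV, and whose value was 0.26 without 4A+ replicate 2 with BV. Cre03.g155250 was at 14.5 and 14.9 without BV and at 13.6 and 20.2 with it (limma adjusted p = 0.51). None of the 4 thus came near a 2-fold difference with BV in 4A+.

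In hmox1 the same dose of BV went with rises and falls in about the same shares as over all genes. By limma, 20 of the 102 rose (19.6%, against 20.5% of all genes tested) and 37 fell (36.3%, against 37.7%), with a median difference of -0.09 against -0.11 for all genes. Rescaled libraries gave 29 rises and 26 falls, against 26.3% and 28.8% of all genes. On the log2(RPKM + 1) scale the rises of 2-fold or more were 3 (3.76% of all genes tested) and the falls 4 (3.57%). Cre04.g223050 rose from 25.2 and 21.5 RPKM to 70.4 and 67.4, by 1.52 (SE 0.113, limma adjusted p = 2.2e-09). Cre01.g042700 rose from 3.68 and 2.91 to 10.8 and 10.6, by 1.45 (SE 0.0990, limma adjusted p = 6.1e-10), and Cre01.g003850 from 7.21 and 6.79 to 16.5 and 15.9, by 1.10 (SE 0.0835, limma adjusted p = 2.4e-09). For all 3 genes both libraries with BV lay above both without, which the rule for naming them required.

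The falls of 2-fold or more in hmox1 were those of g9967, Cre16.g663450, Cre10.g423400 and Cre17.g738600. The libraries of g9967 went from 7.44 and 5.91 RPKM to 1.23 and 2.57, a difference of -1.44 (SE 0.171, limma adjusted p = 2.0e-06). Those of Cre16.g663450 went from 22.9 and 21.5 to 7.62 and 7.78, a difference of -1.41 (SE 0.0799, limma adjusted p = 4.5e-11). Those of Cre10.g423400 went from 20.01 and 19.6 to 6.99 and 8.30, a difference of -1.27 (SE 0.0796, limma adjusted p = 1.9e-10). The values with BV of Cre10.g423400 came near its 0.5 h values in the complemented lines, 5.79 to 6.49.

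Set side by side, 16 genes rose with BV in both strains, which is 26.2% of the 61 that rose in 4A+ and 80% of the 20 that rose in hmox1. Both strains showed a fall for 10 genes, 83.3% of the 12 in 4A+ and 27% of the 37 in hmox1. A further 13 rose in 4A+ and fell in hmox1, 21.3% of the 61, and 1 did the opposite. The remaining 32 of the 61 rises in 4A+ (52.5%) had no call in hmox1. Over all genes tested, 48.6% of the 4456 rises in 4A+ were also rises in hmox1, 10% were falls there and 41.4% had no call. Of the rises in hmox1 over all genes tested, 76.1% were shared with 4A+. The falls shared by both strains made up 81.1% of those in 4A+ and 58.9% of those in hmox1. These are counts over the 2 strains' separate comparisons, and no test was made of the overlap.

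**Figure D3:**
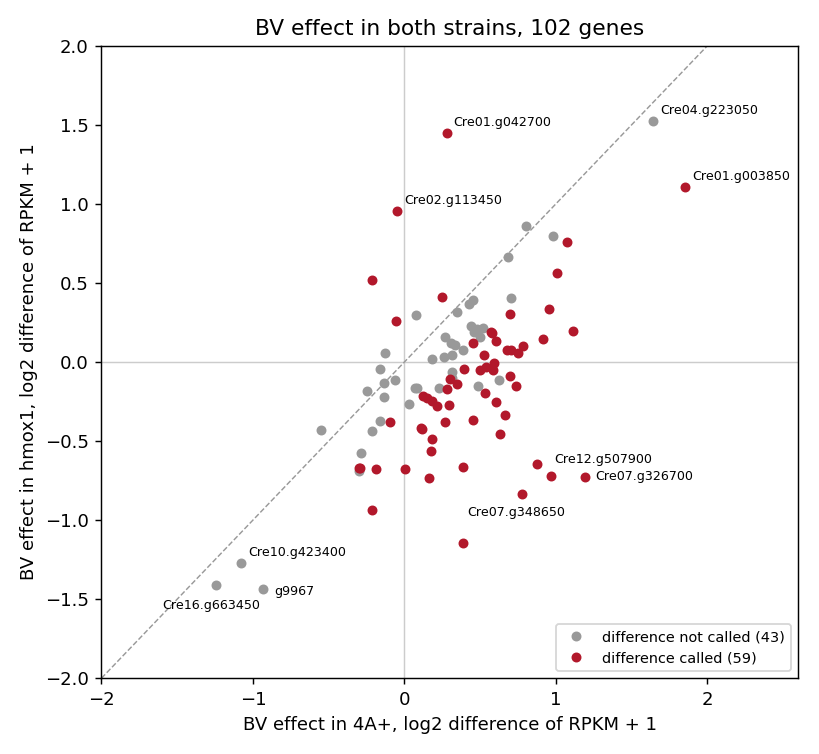
The BV effect in hmox1 against that in 4A+ for each of the 102 genes, both as log2 differences of RPKM + 1 at 4 h; the dashed line marks equal effects and red points the 59 genes whose difference of effects was called. Most points lie below the line, with Cre07.g326700, Cre12.g507900 and Cre07.g348650 far under it and Cre01.g042700 and Cre02.g113450 above it.

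The difference between the BV effects was tested directly, as the effect in hmox1 minus that in 4A+. It was called for 59 of the 102 genes (57.8%, against 33.6% of all genes tested). In 54 of them the effect was lower in hmox1 (52.9%, against 25.5% of all genes tested) and in 5 it was higher (4.9%, against 8.04%). The median difference of effects was -0.39, against -0.12 over all genes. With rescaled libraries the counts were 33 lower and 6 higher, against 16.3% and 15.9% of all genes, and the medians -0.24 and 0.01. A difference of 2-fold or more was called lower for 7 genes (2.95% of all genes tested) and higher for 2 (1.39%).

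The 3 genes with the most negative difference rose with BV in 4A+ and fell with it in hmox1; the fall of Cre07.g326700 lost its call (-0.52) without hmox1 replicate 1 lacking BV. Cre07.g326700 went from 3.01 and 1.72 RPKM to 5.78 and 7.38 in 4A+, and from 4.44 and 3.09 to 2.04 and 1.68 in hmox1, a difference of -1.92 (SE 0.269, limma adjusted p = 5.7e-05). Cre12.g507900 went from 3.87 and 3.47 to 8.10 and 8.16 in 4A+, and from 15.3 and 14.3 to 8.78 and 8.39 in hmox1, a difference of -1.69 (SE 0.125, limma adjusted p = 8.5e-09). With BV the 2 strains met at about the same level of Cre12.g507900, and without it hmox1 was much the higher. Cre07.g348650 likewise went from 3.0 and 3.4 in 4A+ and 9.60 and 9.11 in hmox1 to 5.88 and 6.48 and to 4.65 and 4.97, with a difference of -1.61 (SE 0.123, limma adjusted p = 1.2e-08).

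Cre01.g042700 and Cre02.g113450 went the other way. Cre02.g113450 was at 4.22 and 4.21 RPKM without and 3.88 and 4.19 with BV in 4A+, where no difference was called, and rose from 4.37 and 5.58 to 10.7 and 10.4 in hmox1. The difference of effects was 1.01 (SE 0.124, limma adjusted p = 5.4e-06). For Cre01.g042700 it was 1.17 (SE 0.140, limma adjusted p = 3.9e-06), from 0.09 and 0.07 to 0.32 and 0.30 in 4A+ and from 3.68 and 2.91 to 10.8 and 10.6 in hmox1. With a pseudocount of 0.1 that difference was 0.49 with a limma adjusted p of 0.090, so the call for Cre01.g042700 rests on the scale chosen for values near 0.

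Cre13.g573400 and Cre01.g015350, the 2 most abundant genes at 4 h, rose with BV in both strains. Cre13.g573400 in hmox1 went from 351 and 348 RPKM to 607 and 576, by 0.76 (SE 0.0442, limma adjusted p = 7.1e-11), less than in 4A+, with a difference of effects of -0.32 (SE 0.0625, limma adjusted p = 0.00070) that rescaling brought to -0.14 with no call. Cre01.g015350 went from 489 and 475 to 651 and 631 in hmox1, by 0.41 (SE 0.0424, limma adjusted p = 1.5e-07), and from 570 and 578 to 685 and 680 in 4A+, by 0.25 (SE 0.0424, limma adjusted p = 5.6e-05). Cre14.g611300 rose in 4A+ from 93.8 and 93.3 to 153 and 160.4, by 0.74 (SE 0.0749, limma adjusted p = 1.1e-07), while in hmox1 it was at 113.8 and 106 without and 96.6 and 101.4 with BV (limma adjusted p = 0.096). The difference of effects for Cre14.g611300 was -0.89 (SE 0.106, limma adjusted p = 3.8e-06).

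With BV in both strains, the 102 genes stood lower in hmox1 than in 4A+ more often than genes in general. By limma, 41 were lower (40.2%, against 15% of all genes tested) and 15 higher (14.7%, against 34.9%), with a median difference of -0.18 against 0.10. Rescaled libraries gave 60 lower and 8 higher, against 27% and 24.1% of all genes, and medians of -0.34 and -0.02. Of these, 6 were at least 2-fold lower (0.995% of all genes tested) and 3 at least 2-fold higher (3.89%). Cre10.g439450 was at 10.04 and 8.95 RPKM in 4A+ with BV and at 1.74 and 1.88 in hmox1 with BV, a difference of -1.90 (SE 0.120, limma adjusted p = 3.2e-10). Cre01.g016400 was at 12.7 in both 4A+ libraries and at 3.16 and 3.39 in hmox1, with a difference of -1.68 (SE 0.0907, limma adjusted p = 3.4e-11). Cre07.g326700, at 5.78 and 7.38 against 2.04 and 1.68, differed by -1.40 (SE 0.190, limma adjusted p = 1.8e-05). The genes higher in hmox1 were Cre01.g042700, with 3.16 (SE 0.0990), Cre04.g223050, with 1.89 (SE 0.113), and Cre02.g113450, with 1.20 (SE 0.0877). This comparison shares libraries with the ones above and is no separate evidence for them.

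The 477 genes that dropped as far but stayed lower at 4 h in at least 1 line give the nearest contrast. With BV in 4A+, 83.2% of them rose and 2.1% fell, against 59.8% and 11.8% of the 102. In hmox1, 60.8% of the 477 rose with BV and 6.29% fell, against 19.6% and 36.3% of the 102. Without BV, 68.3% of the 477 were higher in hmox1, against 45.1% of the 102 and 53.5% of all genes tested. With rescaled libraries these were 49.5% of the 477, 21 of the 102 and 30.5% of all genes. The differences of BV effect were alike in direction, with 46.1% of the 477 and 52.9% of the 102 called lower in hmox1. The 2 sets were parted by their 4 h level in the complemented lines, and no test was made between them. Within the 102, the 43 genes with a late value of 0 or higher in both lines counted 24 rises and 9 falls with BV in 4A+, and 6 and 23 in hmox1. The other 59 counted 37 and 3 in 4A+ and 14 and 14 in hmox1. The 43 genes thus held most of the falls among the 102 in each strain. Set against all genes tested, their falls in 4A+ were a smaller share than the 27.4% there. Their falls in hmox1 were a larger share than the 37.7% of all genes tested. These subsets were not tested.

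**Figure D4:**
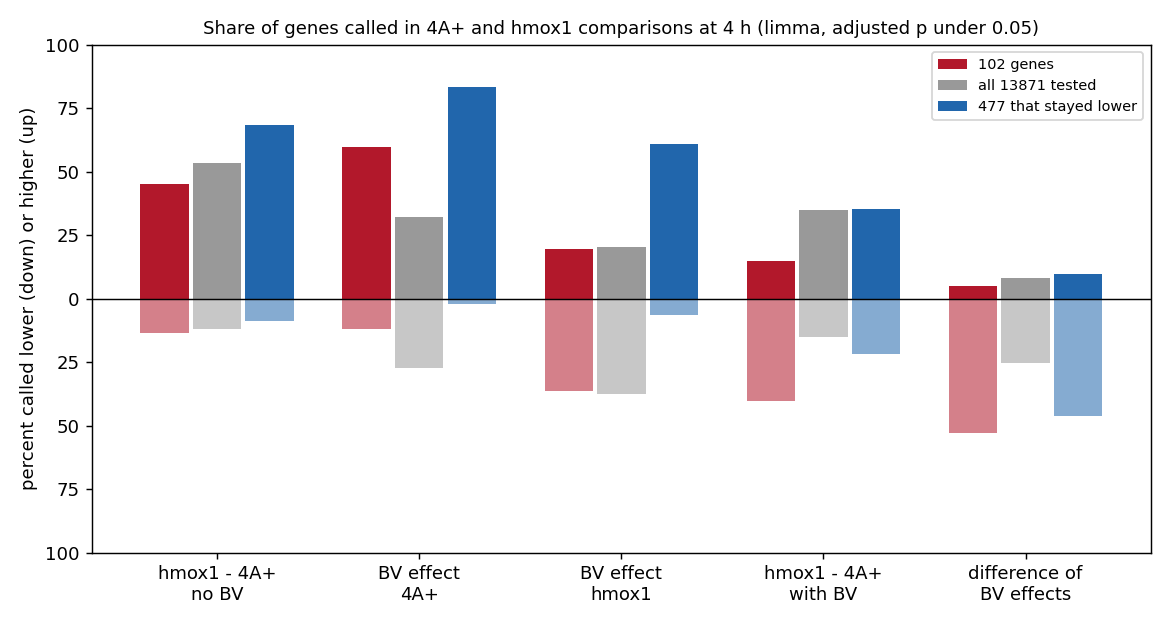
Percent of genes called higher and lower by limma in each of the 5 comparisons at 4 h, for the 102 genes, for all 13871 genes tested and for the 477 genes that dropped and stayed lower. With BV in 4A+, rises make up 59.8% of the 102, 32.1% of all genes tested and 83.2% of the 477; with BV in hmox1 the 102 sit at 19.6%, close to the 20.5% of all genes tested.

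Gene order was read from RefSeq's annotation, sorted by chromosome and start position, for the 84 of the 102 genes whose locus tag it places on a chromosome. Cre14.g611300 and Cre14.g611350 are neighbours in it, as are Cre04.g228050 and Cre04.g228100, and no others of the 84 adjoin each other. Members outside the order could not be read for neighbours. In the second pair, BV in 4A+ went with a rise of Cre04.g228050, by 0.45 (SE 0.151, limma adjusted p = 0.015), and a fall of Cre04.g228100, with a difference of -0.25 (SE 0.0900, limma adjusted p = 0.024), calls that were lost when single 4A+ libraries were left out, with values down to 0.24 and -0.16. In the first pair both rose with BV in 4A+, Cre14.g611350 by 0.61 (SE 0.126, limma adjusted p = 0.00041). A gene with an early value of -1 or lower in both lines adjoined 30 of the 84 (35.7%), against 18.8% of the 10169 tested genes in the order. The early values come from the libraries that chose the genes, and the 30 include the 4 genes that adjoin another of the 102. No test was made of these shares. A gene with an early value of 1 or higher in both lines adjoined 10 (11.9%), against 9.18%. The steepest of these, picked after their values were seen, was Cre07.g320400 beside Cre07.g320350, with early values of 8.29 and 8.90. The sources used here do not say whether the counting used strand, so reads from overlapping neighbours cannot be told apart.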

How the data were processed

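RNA from 20 cultures was sequenced as single-end reads, per the labels' protocols. STAR 2.3.0 and HTSeq are named in the submitters' processing notes; the sources used here do not give the genome build or annotation. The deposited table holds 1 value per gene ID and library with no unit named; the values were read as RPKM made by the authors. The 102 genes, and the lists and comparisons, were chosen with earlier results of these data known.

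From there, log2(RPKM + 1) was fitted with limma 3.58.1 in R 4.3.3 (trend and robust moderation) with a mean for each of the 10 groups over all 20 libraries. Genes needed 1 RPKM in 2 or more libraries to be tested, which left 13871 and dropped 3866; all 102 passed. P-values were adjusted by Benjamini-Hochberg over all genes within each of 5 comparisons, with a threshold of 0.05. Fold changes on this scale understate those of low genes. The groups hold 2 libraries each, so the spread is shared across groups. Counts were not available, so no count test was run and the total depth is unknown. Low values of 230 genes gave the relative depth (89.5% within 6% of a whole step). The steps were set from the same values, so that share is no separate check of the depth. Simulated data were used to check the fit.

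Named genes were the 4 deepest drops, the 4 highest dark levels, the 3 highest late values, the 3 highest and lowest called 2-fold differences per comparison, the genes nearest the thresholds and adjacent pairs, 26 in all; others were named after their values were seen. Planned lists by gene name and protein identity were not used, since the IDs carry no names here. RefSeq's table matched 11713 of 17737 IDs (66%). Alternatives changed the pseudocount, filter, scaling, libraries, moderation and member thresholds.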

Additional observations from a re-analysis of the deposited data

Results flagged for a closer look

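The BV effect differed between hmox1 and 4A+, by a test of the difference itself (limma, Benjamini-Hochberg adjusted over all genes tested), for 59 of the 102 genes (57.8%, against 33.6% of all genes tested), and for 21 of those named in the text. Rescaling lowered the negative calls from 54 to 33. The value given for each is the effect in hmox1 minus that in 4A+ on the log2(RPKM + 1) scale. The difference was positive for Cre01.g042700 (1.17), Cre02.g113450 (1.01) and Cre01.g015350 (0.16). It was negative and beyond 1 for Cre07.g326700 (-1.92), Cre12.g507900 (-1.69), Cre07.g348650 (-1.61) and Cre17.g738600 (-1.54). Between -1 and -0.7 lay Cre03.g155250 (-0.90), Cre14.g611300 (-0.89), Cre01.g013050 (-0.86), Cre04.g228050 (-0.82), Cre10.g437000 (-0.79), g4970 (-0.77), Cre01.g003850 (-0.75) and Cre10.g439450 (-0.72). The others were Cre12.g505250 (-0.60), Cre14.g611350 (-0.47), Cre01.g016400 (-0.38), Cre11.g479900 (-0.37), Cre07.g320350 (-0.34) and Cre13.g573400 (-0.32). Of these, g4970, Cre17.g738600, Cre10.g437000, Cre12.g505250 and Cre07.g320350 were named outside the rule for named genes, after their values were seen. For Cre03.g155250, Cre01.g015350, Cre01.g016400, Cre11.g479900, Cre14.g611350 and Cre07.g320350 the call was lost in 5 or more of the alternatives tried. With groups of 2 libraries, no library could be tested as standing apart from its group.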

How the results depend on the processing

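Of 197 recounts of called genes and members, 156 were within 1.5 times the count reported. Counts are given as higher calls and lower calls, in the order hmox1 minus 4A+ without BV, BV in 4A+, BV in hmox1, hmox1 minus 4A+ with BV, and the difference of BV effects. A mean of 5 RPKM or more left 58 of the 102 genes to be tested. It gave 21 higher without BV, 34 higher for BV in 4A+, 13 and 23 for BV in hmox1, 3 higher with BV, and 2 and 34 for the difference. These 58 genes, and the sets of 62 and 69 members below, are fewer than 102. A lower count there need not be a lower share of the genes. Median-ratio rescaling gave 21 and 33 without BV, 8 higher with BV and 33 lower for the difference; the cause was not tested. The set chosen from rescaled values had 62 members, of which 49 were among the 102 genes described here. The rest of the 102 did not meet the rule on that scale. The 62 members gave 25 and 8, 37 and 7, 9 and 21, 5 and 26, and 3 and 33. Members at 5 RPKM or more in the dark, 69 in number, gave 29 and 8, 24 lower for BV in hmox1, 7 higher with BV and 3 higher for the difference. The 8 libraries of 4A+ and hmox1 alone gave 7 lower for BV in 4A+ and 3 higher for the difference, as did a pseudocount of 0.1 with 3. The set had 200 members at a pseudocount of 0.1 (355 before the limit of 200) and at an early threshold of -1, 26 at -2, 43 at a late threshold of 0 and 62 from rescaled values. The 200 members at a pseudocount of 0.1 held 83 of the 102 genes, and the limit may have left out others.

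Leaving out single libraries gave 36 to 47 and 11 to 15, 48 to 62 and 6 to 11, 17 to 24 and 28 to 37, 9 to 17 and 32 to 44, and 3 to 5 and 38 to 55, with 96 to 103 members. The falls with BV in 4A+ were 6 without 4A+ replicate 2 lacking BV and 7 without 4A+ replicate 1 with BV. The higher calls with BV were 9 without 4A+ replicate 1 or hmox1 replicate 2, and those for the difference 3 without either 4A+ library with BV or hmox1 replicate 1 with BV. Deviations of same-numbered replicates had a median correlation of 0.0788 over 45 group pairs, from -0.0979 to 0.33, with 16 over 0.1. Some shared deviation in some groups is thus possible. The main fit did not take the replicates as pairs. A replicate block gave 50 and 15, 63 and 12, 21 and 38, 15 and 46, and 5 and 57. Over 2410 alternatives for named genes, 2239 kept direction and call, 132 lost the call and 37 gained it. The difference without BV turned from 0.09 to -0.25 for Cre13.g573400 and from 0.23 to -0.11 for Cre14.g611300 under rescaling. Depth limits genes under 1 RPKM, such as Cre01.g042700 in 4A+.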
